A study of Schizosaccharomyces pombe with 37 samples.

Results

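The genes described here are the nuclear-encoded part of the oxidative phosphorylation machinery of fission yeast (Schizosaccharomyces pombe). They were taken as every feature whose name is cox, qcr, atp, sdh, cyt, cyc or rip followed by a number and that does not lie on the mitochondrial genome, which gave 54 of the 6996 features in the table. By role, 3 encode subunits of complex II, 9 of complex III, 8 of complex IV and 13 of ATP synthase. Cytochrome c and its haem lyases account for 4, and 17 assist assembly of complex II (2 genes), complex IV (10) or ATP synthase (5). All 54 had a mean of at least 1 CPM (counts per 1000000 counted reads) over the libraries and were tested.

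The study mutated the cleavage and polyadenylation factor (CPF), which cuts and polyadenylates nascent mRNA and helps RNA polymerase II to terminate, and measured total RNA in 10 strains with 3 libraries each. The mutants were yth1-R59C and pfs2-F115H (poly(A) polymerase module); ssu72D, dis2D, ppn1D and swd22D (deletions in the phosphatase module); and PAS-T4A, PAS-T4C and PAS-T4G, which carry ade6+-TTAATT, ade6+-TTACTT or ade6+-TTAGTT, that is, 1 altered base of the polyadenylation signal of the reporter gene only. The reference was wt. Every strain, wt included, was h- leu1-32 ura4-D18 ade6-704 with the reporter trp1+::ade6+, and cells were grown exponentially in rich medium (YES) at 30 °C; the 4 deletions and pfs2-F115H also carry the kanMX marker. Each genotype was 1 strain, and the labels do not say whether its 3 libraries came from separate cultures, so p-values measure the spread between these libraries.

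Respiratory complexes pass electrons from succinate (complex II) or, in fission yeast, which has no complex I, from single-polypeptide NADH dehydrogenases to coenzyme Q, then through complex III, cytochrome c and complex IV to oxygen. The proton gradient built on the way drives ATP synthase. Complexes III, IV and ATP synthase combine many nuclear-encoded subunits with a few core subunits encoded in mitochondrial DNA, whereas all complex II subunits are nuclear. Assembly factors insert haem, copper and subunits but are not part of the finished complex.

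Libraries held 1031965 to 6344396 counted reads (median 1918664), so that 3 reads were worth 0.473 to 2.91 CPM. Replicates of a strain correlated at Pearson r of 0.980 to 0.994 across genes on the log2 scale. Reads of ssu72, dis2 and swd22 were 0 in all 3 libraries of their own deletion, where 3 reads would have been the floor. By contrast, ppn1 stood at 76.3, 77.3 and 86.1 CPM in the libraries labelled ppn1D and at 77.5, 79.3 and 62.8 CPM in wt, which goes against that label. In bulk RNA, fewer cells expressing a gene and less RNA per cell cannot be told apart.

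In wt cells every subunit gene other than cox8 and atp18 had a higher mean level per coding kilobase than every assembly gene of its own complex, although cox7 (63.7 ± 10.2) and cox24 (63.3 ± 2.85 CPM per coding kb) did not differ beyond their spread (SD, n = 3 each). atp2, the catalytic beta subunit of ATP synthase, had the highest level of all members, at 1025 ± 8.58 CPM per coding kb (SD, n = 3), from 1623, 1603 and 1629 CPM. It was followed by sdh1, the flavoprotein subunit of succinate dehydrogenase, at 533 ± 31.6, and by cyc1, cytochrome c, at 407 ± 10.6 CPM per coding kb (SD, n = 3 each). Within complex III the range ran from 278 ± 24.1 for qcr8 to 88.1 ± 22.5 CPM per coding kb for qcr10, and within complex IV from 221 ± 12.2 for cox5 to 23.0 ± 6.09 for cox8 (SD, n = 3 each). The small membrane subunit gene atp18 was lowest among ATP synthase subunits, at 27.6 ± 15.4 CPM per coding kb, with a wide spread for its mean (SD, n = 3).

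The assembly genes of complex IV ranged from 63.3 ± 2.85 for cox24, which RefSeq annotates as the mitochondrial ribosomal protein mS38, to 1.43 ± 0.211 CPM per coding kb for cox1102 (SD, n = 3 each). The low end belongs to cox1101 and cox1102, tandem fusions of Rsm22 and the copper protein Cox11, for which only 2.35% of 50-base words of the coding sequence occur once in the genome, so reads cannot be assigned between them with certainty. Assembly genes of ATP synthase ranged from 42.3 ± 4.40 for atp12 to 11.6 ± 1.72 for atp10, both F1 or F0 assembly proteins, and those of complex II from 49.4 ± 3.40 for sdh8 to 25.4 ± 5.12 for sdh7. Because reads of untranslated regions are divided by coding length, short genes are overstated on this scale.

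**Figure D1:**
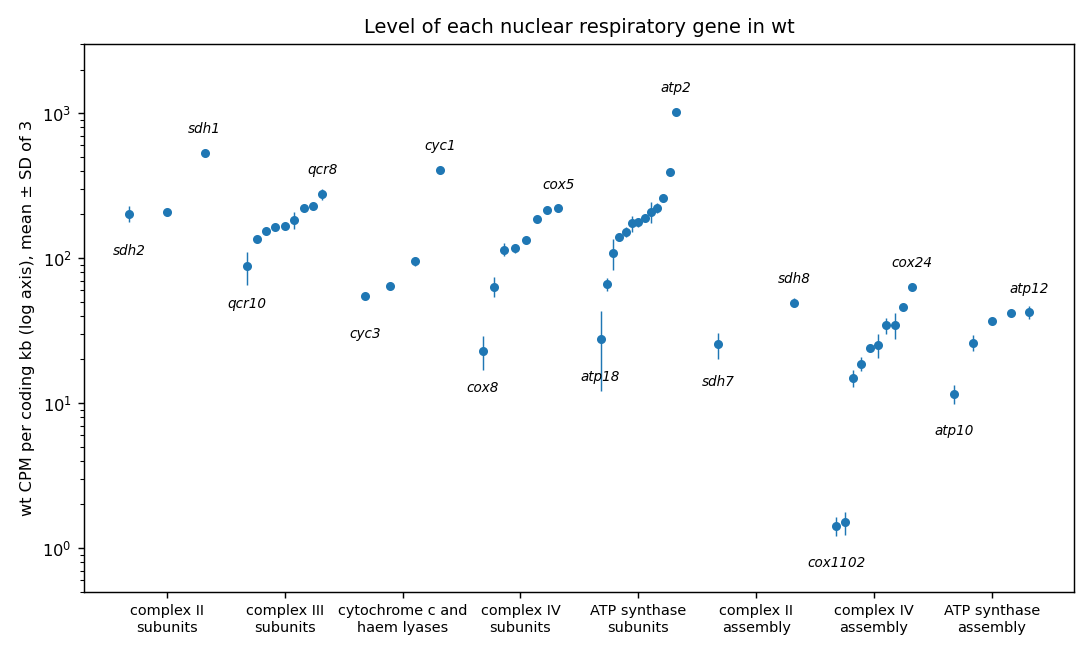
Level of the 54 nuclear respiratory genes in wt, by role (x axis), in CPM per coding kilobase on a log axis. Points are means of 3 libraries and bars SD; the highest and lowest gene of each role are named, from atp2 at 1025 down to cox1102 at 1.43.

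The sequences before several of these genes share the pentamer CCAAT, the motif read by the CCAAT-binding complex (Hap complex in budding yeast, Php in fission yeast), which in budding yeast activates respiratory genes. In the 250 bases before the annotated start, CCAAT or its reverse complement ATTGG, searched together so that both strands are covered, occurred for 29 of 54 members (53.7%), against 35.3% of 5111 protein-coding genes. Complex II subunits (3 of 3), the cytochrome c and haem lyase genes (4 of 4) and complex III subunits (7 of 9) held it most often, and complex II assembly genes (0 of 2) and complex IV assembly genes (3 of 10) least often. The 150 bases before the start are given for 6 genes whose behaviour in ssu72D is described next, 5 that fell there and sdh1, which was not called, with the motif in capitals (RefSeq, build ASM294v3, 5′ to 3′ on the strand of the gene). The windows are chrII:2034900-2035049 (minus strand) for qcr1, chrII:2073086-2073235 (plus) for cyt1, chrI:4766906-4767055 (plus) for qcr8, chrI:5256576-5256725 (plus) for atp1, chrI:970401-970550 (minus) for atp2 and chrI:3798463-3798612 (minus) for sdh1.
qcr1: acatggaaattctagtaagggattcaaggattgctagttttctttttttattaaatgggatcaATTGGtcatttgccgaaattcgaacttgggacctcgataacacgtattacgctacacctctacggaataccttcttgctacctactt
cyt1: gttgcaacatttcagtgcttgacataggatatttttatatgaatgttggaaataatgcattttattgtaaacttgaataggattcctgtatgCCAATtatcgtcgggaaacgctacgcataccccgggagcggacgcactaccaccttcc
qcr8: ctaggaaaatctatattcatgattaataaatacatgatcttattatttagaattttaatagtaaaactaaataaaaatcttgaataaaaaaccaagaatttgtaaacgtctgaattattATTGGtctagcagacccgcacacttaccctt
atp1: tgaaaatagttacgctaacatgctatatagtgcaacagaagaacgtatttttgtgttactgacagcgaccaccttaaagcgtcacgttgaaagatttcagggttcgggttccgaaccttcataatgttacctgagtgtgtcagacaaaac
atp2: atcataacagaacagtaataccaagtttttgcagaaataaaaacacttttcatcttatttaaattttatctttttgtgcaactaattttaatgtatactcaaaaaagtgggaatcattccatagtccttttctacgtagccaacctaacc
sdh1: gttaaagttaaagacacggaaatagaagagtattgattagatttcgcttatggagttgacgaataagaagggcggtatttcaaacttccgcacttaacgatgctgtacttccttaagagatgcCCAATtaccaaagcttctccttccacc
The motif begins 87 bases before the start of qcr1, 58 before cyt1, 31 before qcr8 and 27 before sdh1, and it is not in the 150 bases shown for atp1 and atp2. A match is a description of the letters only. In the last 60 bases of annotated transcripts, the canonical signal AATAAA occurred for 10 of 54 members (18.5%) and for 18.9% of protein-coding genes.

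In the strain without Ssu72, the CPF phosphatase of the RNA polymerase II C-terminal domain, most structural genes of complexes III, IV and ATP synthase were lower. In ssu72D, 22 members were lower and 0 higher than in wt at adjusted p below 0.05 (limma, Benjamini-Hochberg over 5911 features), a share of 40.7% lower, where 8.49% of all features tested were called lower and 8.27% higher. The calls comprised 7 of 9 complex III subunits, 5 of 8 complex IV subunits, 9 of 13 ATP synthase subunits and cytochrome c. None of 3 complex II subunits, 17 assembly genes and 3 haem lyase genes was called. The median log2 fold change was -0.87 in complex III, -0.51 in complex IV and -0.61 in ATP synthase, against 0.02 over all features. None reached 2-fold, the size at which 3.47% of all features were called. All 3 ssu72D libraries lay below all 3 wt libraries for 29 members (53.7%), against 19.7% of all features.

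Complex III had the lowest median. qcr1, the core subunit that RefSeq annotates as the beta subunit of the mitochondrial processing peptidase, had 152, 182 and 146 CPM in ssu72D, against 305, 317 and 327 CPM in wt. The highest ssu72D library was below the lowest wt library, and the log2 fold change was -0.99 ± 0.09 (SE, adjusted p = 9.6e-10, limma). Its partner core subunit qcr2 had 126, 147 and 111 CPM in ssu72D and 213, 218 and 211 CPM in wt, again with no overlap between the strains (log2 fold change -0.75).

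The nuclear-encoded redox subunits of the complex were lower too. cyt1, cytochrome c1, had 78.0, 93.0 and 62.3 CPM in ssu72D, against 138, 141 and 150 CPM in wt (log2 fold change -0.89 ± 0.11, SE, adjusted p = 1.5e-07, limma). rip1, the Rieske iron-sulfur protein, had 57.5, 66.8 and 57.5 CPM in ssu72D, against 118, 107 and 113 CPM in wt (log2 fold change -0.89). Of the small subunits qcr8 had 38.9, 43.1 and 36.5 CPM in ssu72D and 70.0, 79.6 and 82.9 CPM in wt, while qcr7 and qcr6 changed by -0.87 and -0.48 on the log2 scale. The remaining complex III genes, qcr9 (-0.47) and qcr10 (-0.53), also had all ssu72D libraries under all wt libraries but were not called (adjusted p = 0.079 and 0.11, limma).

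Cytochrome c, the carrier between complexes III and IV, fell as well. cyc1 had 72.0, 82.8 and 56.0 CPM in ssu72D and 130, 135 and 137 CPM in wt (log2 fold change -0.94 ± 0.13, SE, adjusted p = 2.5e-06, limma). Of the genes for haem attachment to the cytochromes, cyt2, cyc2 and cyc3 had log2 fold changes of -0.42, -0.32 and -0.08, none called.

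In complex IV the called genes were cox4, cox5, cox6, cox9 and cox12, all nuclear subunits that surround the mitochondrially encoded core. cox4 had 65.9, 67.0 and 64.3 CPM in ssu72D and 113, 105 and 102 CPM in wt (log2 fold change -0.69). cox5 had 72.7, 86.0 and 59.9 CPM in ssu72D and 131, 118 and 122 CPM in wt (log2 fold change -0.77). By contrast cox8, the lowest complex IV subunit gene, lay higher in every ssu72D library, at 8.24, 7.19 and 7.30 CPM against 6.02, 3.78 and 4.04 CPM in wt, and was not called (log2 fold change 0.63, adjusted p = 0.16, limma), whereas edgeR on recovered reads called it higher (adjusted p = 0.024) and DESeq2 did not (adjusted p = 0.10).

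In ATP synthase both subunits of the catalytic head fell. atp1, the alpha subunit, had 385, 431 and 376 CPM in ssu72D and 651, 647 and 606 CPM in wt (log2 fold change -0.68 ± 0.07, SE, adjusted p = 8.5e-09, limma). atp2 had 906, 1102 and 886 CPM in ssu72D, against 1623, 1603 and 1629 CPM in wt (log2 fold change -0.75 ± 0.09, SE, adjusted p = 9.0e-08, limma). The central stalk genes atp3 (gamma subunit) and atp16 (delta subunit), the stator genes atp4, atp5 and atp7 and the membrane sector genes atp17 and atp20 were called as well, with log2 fold changes of -0.55 to -0.72. atp14, atp15, atp18 and atp19 were not called (-0.16 to -0.62).

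The reads of the 31 genes for subunits of complexes III, IV and ATP synthase and for cytochrome c summed to 2829, 3271 and 2723 CPM in ssu72D, against 4872, 4815 and 4730 CPM in wt, a ratio of means of 0.612. The 3 complex II subunits, which share no subunit with the mitochondrial genome, summed to 1239, 1310 and 1292 CPM in ssu72D and 1385, 1232 and 1308 CPM in wt (ratio 0.979). sdh1 on its own had 977, 1038 and 1023 CPM in ssu72D and 1081, 961 and 1040 CPM in wt, a log2 difference of -0.02 ± 0.07 (SE). The 20 assembly and haem lyase genes summed to 454, 488 and 454 CPM in ssu72D, against 503, 478 and 485 CPM in wt (ratio 0.952). cox10, the farnesyltransferase that makes the haem of complex IV, had 31.2, 30.1 and 29.7 CPM in ssu72D and 28.1, 27.4 and 28.3 CPM in wt (log2 difference 0.12 ± 0.19, SE). Many assembly genes are low, and 10 of the 54 members had a mean under 10 CPM, so that smaller changes there were not detectable at this depth.

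The mitochondrially encoded mRNAs of the same complexes were not called in ssu72D. The 7 mitochondrial mRNAs of complexes III, IV and ATP synthase (cob1, cox1, cox2, cox3, atp6, atp8, atp9) summed to 13698, 17557 and 17299 CPM in ssu72D, against 18723, 13974 and 15869 CPM in wt, and the ranges overlapped. Of 38 mitochondrial genome transcripts tested, 0 were called by limma in ssu72D, 0 had an unadjusted p below 0.05, and edgeR and DESeq2 also called 0. cox1, the catalytic core of complex IV, differed by -0.06 ± 0.08 and cox2 by 0.14 ± 0.09 on the log2 scale (SE). Other mRNAs of the set spread more widely between libraries, so changes there are poorly resolved. For example, atp6 had 252, 858 and 1031 CPM in ssu72D and 1047, 322 and 775 CPM in wt.

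CCAAT or ATTGG was present before 13 of the 22 genes that fell in ssu72D (59.1%) and before 16 of the 32 that were not called (50.0%). It was present before 9 of the 13 genes lower in dis2D (69.2%) and 10 of the 13 lower in swd22D (76.9%); these shares were not tested. Of 5 genes for the CCAAT-binding complex and iron regulators, php3, a subunit of the complex, was higher in ssu72D (log2 fold change 0.59, adjusted p = 0.041) and fep1, the iron-dependent repressor, lower (-0.36, adjusted p = 0.0057, limma). The count of 22 members lower in ssu72D was 21 to 24 when any 1 library was left out, and 22 with the coding length trend removed. The call for cox12 was lost without wt replicate 3 or without ssu72D replicate 1. That for cox9 was lost without wt replicate 1 or without ssu72D replicate 3. Adjusted p for each gene is over all features.

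**Figure D2:**
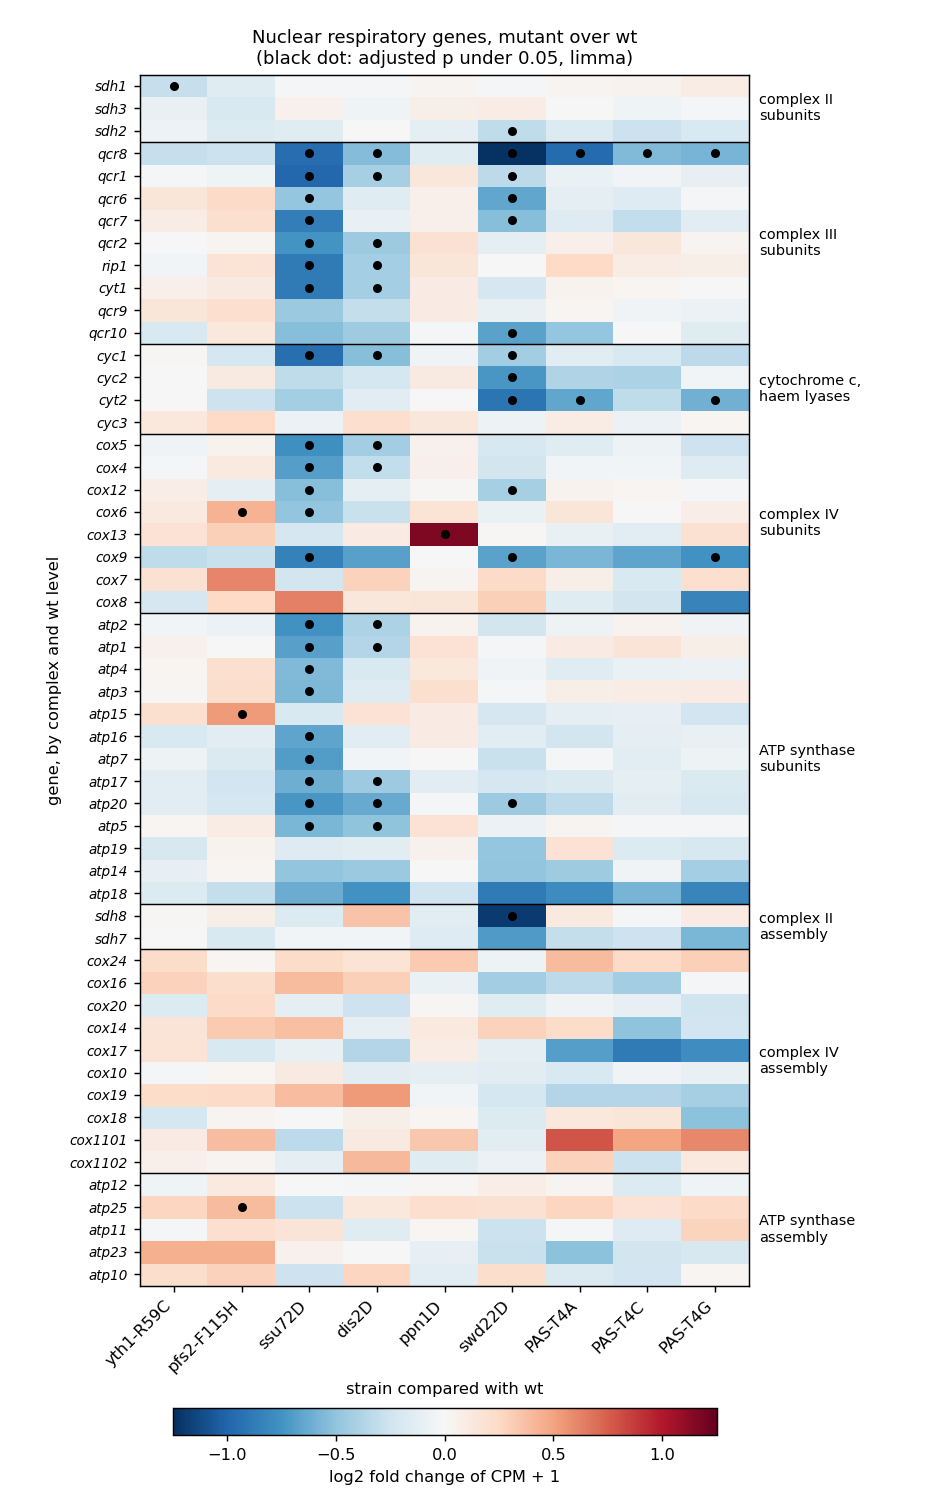
Log2 fold change (CPM + 1) of each of the 54 genes (rows, by role) in each mutant over wt (columns); blue is lower, red higher, and a black dot marks adjusted p below 0.05. The ssu72D column holds 22 dots, none of them in complex II or among the assembly genes, and dis2D and swd22D hold 13 each.

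Dis2 is the other protein phosphatase of the module, of the PP1 family. Its deletion lowered 13 members and raised 0, a share of 24.1% lower, where 4.80% of all features were called lower and 7.24% higher, and none reached 2-fold (2.01% of all features). The libraries did not overlap and lay lower in dis2D for 17 members (31.5%), against 10.2% of all features. The calls were qcr1, qcr2, qcr8, cyt1 and rip1 in complex III, cyc1, cox4 and cox5, and atp1, atp2, atp5, atp17 and atp20. The comparisons of dis2D, ssu72D and every other mutant used the same 3 wt libraries. None of 3 complex II subunits, 17 assembly genes and 3 haem lyase genes was called.

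The strongest single calls were atp1, atp20 and qcr2. atp1 had 543, 469 and 463 CPM in dis2D, against 651, 647 and 606 CPM in wt (log2 fold change -0.37 ± 0.07, SE, adjusted p = 0.00035, limma). atp20, subunit g of the membrane sector, had 36.0, 35.8 and 32.2 CPM in dis2D and 58.7, 50.4 and 53.6 CPM in wt (log2 fold change -0.63). qcr2 had 166, 162 and 141 CPM in dis2D and 213, 218 and 211 CPM in wt (log2 fold change -0.45). In all 3 genes every dis2D library lay below every wt library, as for all called members except rip1, where 1 dis2D library (110 CPM) reached the wt range.

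Summed over the 31 structural genes, dis2D had 4291, 3550 and 3569 CPM and wt 4872, 4815 and 4730 CPM (ratio 0.791), whereas complex II (ratio 0.991) and the assembly and haem lyase genes (ratio 1.03) were close to 1. dis2D replicate 1 had the highest structural sum of the 3. The count of 13 dropped to 6 without dis2D replicate 3, and lay between 9 and 14 when another single library was left out.

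ssu72D and dis2D were also set against each other, a comparison chosen after their values against wt were seen. In ssu72D 17 members were lower than in dis2D and 0 higher, where 11.1% of all features were called lower and 5.90% higher. No member and 3.33% of all features were called at 2-fold or more. The 17 included 1 assembly gene, atp25 (log2 difference -0.40, adjusted p = 0.041, limma), whose libraries overlapped. qcr1 averaged 160 ± 19.0 CPM in ssu72D and 237 ± 24.1 CPM in dis2D (SD, n = 3 each; log2 difference -0.57, adjusted p = 2.4e-05, limma), and atp7, a stator subunit, 57.0 CPM in ssu72D and 91.9 CPM in dis2D (log2 difference -0.67). The count was 10 lower with median-of-ratios scaling and 18 lower with nuclear genes only in the library totals, while the count models gave 9 lower and 1 higher (edgeR) and 8 lower (DESeq2). Leaving out ssu72D replicate 1 gave 11 and leaving out dis2D replicate 1 gave 9 calls.

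In swd22D, which lacks a WD-repeat subunit of the module, 13 members were lower and 0 higher. The share of 24.1% stands beside 12.9% of all features called lower and 7.17% called higher. Called were sdh2 (the iron-sulfur subunit) in complex II, sdh8 among its assembly genes, and the haem lyase genes cyc2 and cyt2. The libraries did not overlap and lay lower in swd22D for 19 members (35.2%), against 22.0% of all features. Complex III had 5 calls (qcr1, qcr6, qcr7, qcr8, qcr10), complex IV 2 (cox9, cox12), ATP synthase 1 (atp20), and cyc1 was called too.

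Changes of at least 2-fold were seen for 2 members, where 2.89% of all features were called at that size. qcr8 had 36.9, 22.3 and 41.1 CPM in swd22D, against 70.0, 79.6 and 82.9 CPM in wt (log2 fold change -1.23 ± 0.15, SE, adjusted p = 2.4e-07, limma). sdh8, an assembly factor that protects the flavinated Sdh1 subunit in budding yeast, had 8.27, 4.85 and 5.21 CPM in swd22D and 16.1, 14.8 and 14.0 CPM in wt (log2 fold change -1.20 ± 0.26, SE, adjusted p = 0.0011, limma). Neither gene overlapped between the strains, and sdh8 rests on few reads, with 5 in the lowest library.

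The haem lyase for cytochrome c1, cyt2, had 24.8, 23.3 and 17.9 CPM in swd22D and 44.4, 39.9 and 42.0 CPM in wt (log2 fold change -0.92). cyc2, annotated as a protein of cytochrome c haem linkage, had 36.9, 48.5 and 52.7 CPM in swd22D and 80.8, 76.8 and 70.8 CPM in wt (log2 fold change -0.73). qcr6 had 85.9, 82.4 and 108 CPM in swd22D and 150, 146 and 136 CPM in wt (log2 fold change -0.65). In contrast, atp1 averaged 627 ± 52.1 CPM in swd22D and 635 ± 24.9 CPM in wt, and rip1 113 ± 11.8 and 113 ± 5.56 CPM in swd22D and wt (SD, n = 3 each).

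Gene length moved with this result. Over all protein-coding features the median log2 fold change of swd22D was -0.21 for coding lengths of up to 300 bases (189 genes) and 0.02 for lengths over 2400 bases (645 genes). With this trend removed in each library, an alternative added after seeing the data, 6 members remained called: qcr1, qcr6, qcr8, cyc2, cyt2 and sdh8. The share of all features called under that setting is not given here. An excess of members over all features therefore cannot be read from these 6. The main count of 13 fell to 5 without swd22D replicate 2, whose structural sum was lowest (3548 CPM against 4462 and 4545 CPM), and to 8 without wt replicate 1. DESeq2 called 8. In ssu72D the corresponding length medians were 0.05 and -0.00.

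Set directly against swd22D, in a comparison also chosen after the values against wt were seen, ssu72D had 17 members lower and 5 higher, where 5.70% of all features were called lower and 10.4% higher, and 2.47% at 2-fold or more in either direction. Lower in ssu72D were mainly catalytic and structural genes, with 1 assembly gene, atp25, also lower (log2 difference -0.46, adjusted p = 0.020, limma). atp1 averaged 397 ± 29.3 CPM in ssu72D and 627 ± 52.1 CPM in swd22D (SD, n = 3 each; log2 difference -0.66, adjusted p = 5.6e-08, limma), and rip1 averaged 60.6 ± 5.37 CPM in ssu72D and 113 ± 11.8 CPM in swd22D (log2 difference -0.88). The 5 higher in ssu72D were 9.26% of members, near the 10.4% of all features, and are not read as a result about the members. In edgeR 2 were higher and in DESeq2 1. The 5 were sdh8, cyc2, cyt2, cox16 and atp11, which are assembly or haem lyase genes. sdh8 had 13.3 CPM in ssu72D and 6.11 CPM in swd22D (log2 difference 1.03, adjusted p = 0.0068, limma). With the length trend removed sdh8 and cyc2 stayed called of these 5; over all protein-coding features the median of this difference was 0.26 for coding lengths of up to 300 bases and -0.04 for lengths over 2400 bases.

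**Figure D3:**
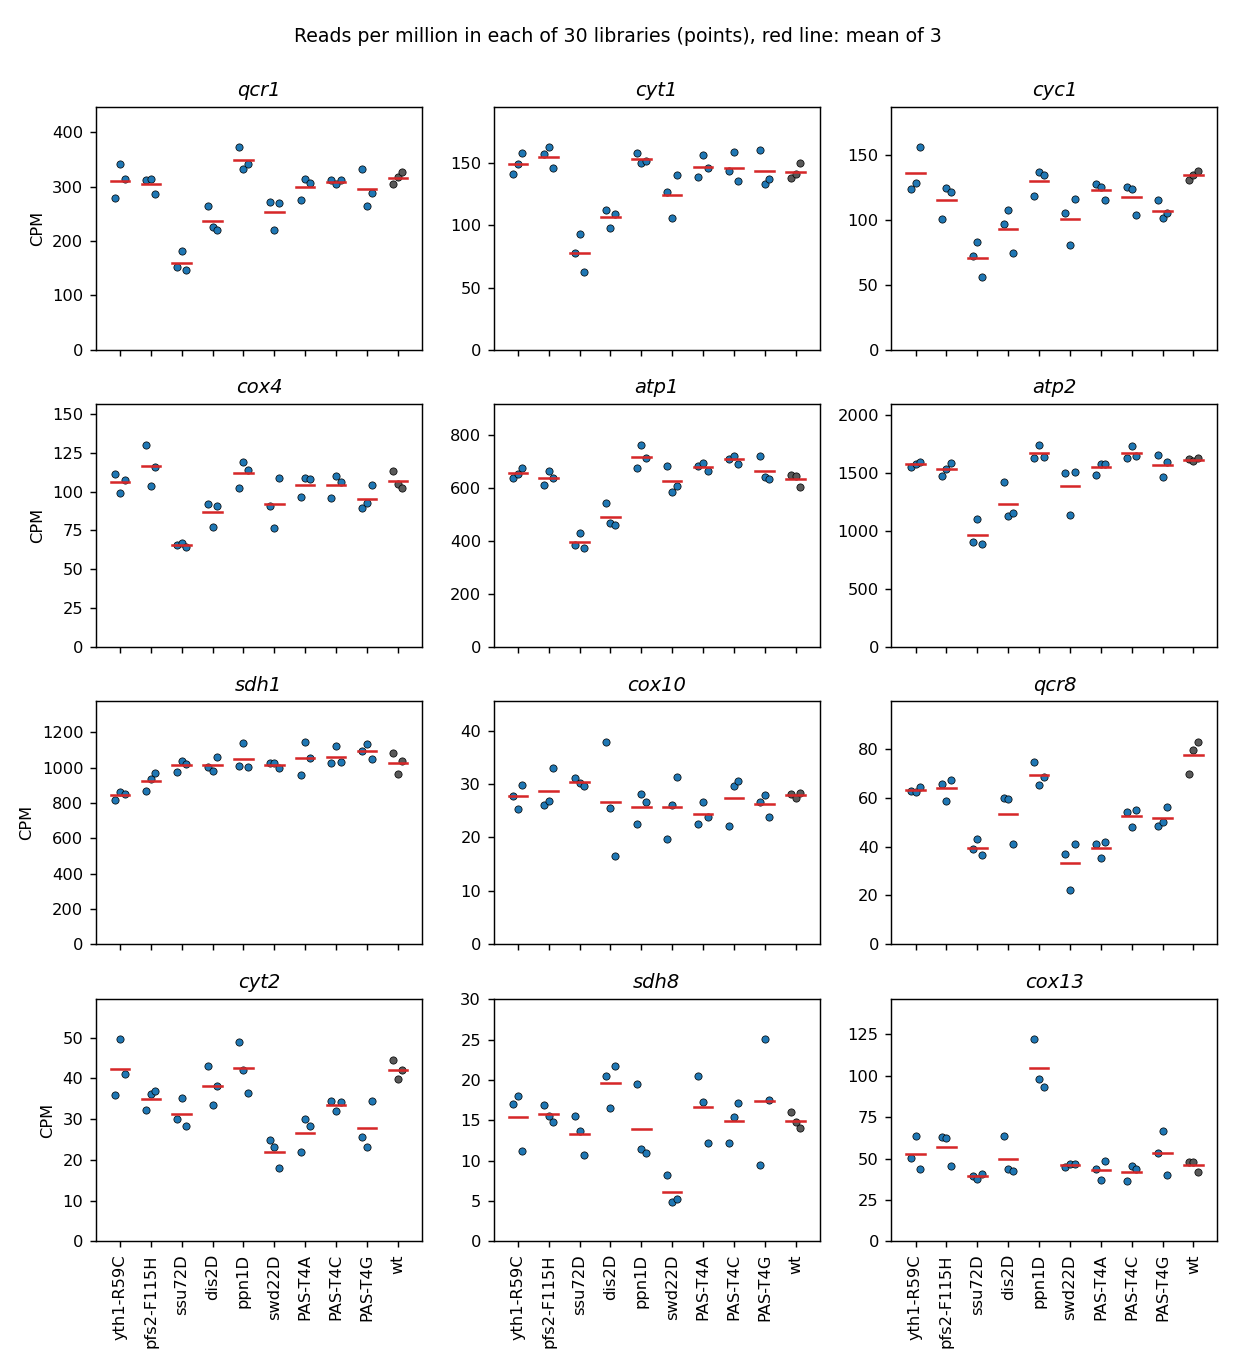
CPM of 12 of the genes in each of the 30 libraries, 9 mutants left of wt, with a line at the mean of 3 libraries. qcr1, cyt1, cyc1, cox4, atp1 and atp2 are lowest in ssu72D with dis2D next, sdh1 and cox10 are not called in ssu72D, qcr8 was called lower in ssu72D, dis2D, swd22D and the 3 PAS strains, and cox13 is high in the libraries labelled ppn1D.

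The point mutants of the poly(A) polymerase module, which recognises the polyadenylation signal and adds the tail, changed few members. In yth1-R59C 1 member was lower and 0 higher, where 1.02% of all features were called lower, 2.84% higher and 0.812% at 2-fold or more. The member was sdh1, with 816, 864 and 848 CPM in yth1-R59C and 1081, 961 and 1040 CPM in wt (log2 fold change -0.28 ± 0.07, SE, adjusted p = 0.0078, limma). The 3 complex II subunits together summed to 1067, 1130 and 1127 CPM in yth1-R59C, against 1385, 1232 and 1308 CPM in wt, without overlap. This sum is mostly sdh1, with a wt mean of 1027 CPM for sdh1 and 1308 CPM for the set. sdh2 and sdh3 had log2 fold changes from -0.09 to -0.07 and were not called. The call for sdh1 was lost without wt replicate 1 or without yth1-R59C replicate 1, and edgeR called 3 members lower.

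In pfs2-F115H 3 members were higher and 0 lower, where 14.1% of all features were called higher, 4.86% lower and 3.13% at 2-fold or more. atp15, the epsilon subunit of ATP synthase, had 70.4, 66.7 and 50.0 CPM in pfs2-F115H and 49.4, 43.0 and 35.5 CPM in wt (log2 fold change 0.54). cox6 had 89.6, 86.1 and 58.8 CPM in pfs2-F115H and 57.2, 58.5 and 54.7 CPM in wt (log2 fold change 0.43). atp25, which in budding yeast stabilises the mitochondrial mRNA for subunit 9, had 107, 89.3 and 75.2 CPM in pfs2-F115H and 68.0, 67.1 and 68.1 CPM in wt (log2 fold change 0.40). These 3 genes kept their sign in every alternative, but the split of calls did not: in CPM the median of all features was 0.12 above wt, and the split was 1 higher and 2 lower with median-of-ratios scaling, 4 higher and 0 lower with nuclear genes only in the library totals, 1 higher and 7 lower in edgeR and 0 higher and 5 lower in DESeq2. Leaving out wt replicate 3, pfs2-F115H replicate 1 or pfs2-F115H replicate 2 left 0 calls, and leaving out wt replicate 1 left 1.

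In each strain designed to differ from wt only in the signal of the reporter gene, at most 3 members were called. Each was 1 strain, so the altered base cannot be told apart from other differences between strains or libraries. PAS-T4A had 2 members lower and 0 higher, where 4.06% of all features were called lower and 3.28% higher; PAS-T4C had 1 lower and 0 higher, beside 2.59% lower and 1.18% higher; and PAS-T4G had 3 lower and 0 higher, beside 4.53% lower and 4.35% higher. No member reached 2-fold, a size called for 0.288%, 0.169% and 0.524% of all features in PAS-T4A, PAS-T4C and PAS-T4G. qcr8 had 40.9, 35.3 and 41.9 CPM in PAS-T4A, 54.2, 47.9 and 55.1 CPM in PAS-T4C and 48.3, 50.2 and 56.2 CPM in PAS-T4G, against 70.0, 79.6 and 82.9 CPM in wt. The log2 fold changes were -0.96, -0.56 and -0.58 with an SE of 0.15, and no library of the 3 strains reached the wt range. qcr8 shares 64 bases with another feature on the same strand, in which reads cannot be assigned. The same limit applies to qcr2 (64 bases), cox5 (66), sdh3 (14) and cyc1 (10). These overlaps are those of RefSeq, not of the annotation used for counting.

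cyt2 was called in PAS-T4A (log2 fold change -0.65) and PAS-T4G (-0.60), and cox9, a small complex IV subunit, in PAS-T4G (-0.76); whether the strains differ from each other was not tested. Short genes were also lower overall in these strains, with a median log2 fold change of -0.19, -0.18 and -0.14 for coding lengths of up to 300 bases in PAS-T4A, PAS-T4C and PAS-T4G, against 0.11, 0.04 and 0.10 for lengths over 2400 bases. The coding length of qcr8 is 279 bases. With the length trend removed, qcr8 and cyt2 stayed called in PAS-T4A and PAS-T4G (qcr8 at adjusted p = 0.047 in PAS-T4G, limma), and qcr8 was lost in PAS-T4C (adjusted p = 0.16, limma), where leaving out any 1 of the 6 libraries also ended the call. The count in PAS-T4A was 1 without PAS-T4A replicate 1, and that in PAS-T4G was 1 without wt replicate 1 or wt replicate 3.

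In the libraries labelled ppn1D 1 member was higher and 0 lower, where 1.39% of all features were called higher and 1.05% lower. cox13, subunit VIa of complex IV, had 122, 98.3 and 93.3 CPM in the libraries labelled ppn1D, against 47.9, 48.1 and 41.7 CPM in wt (log2 fold change 1.16 ± 0.16, SE, adjusted p = 3.7e-06, limma), and 0.711% of all features were called at 2-fold or more. The other 13 members on chromosome III were not called.

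cox13 lay in a stretch of chromosome III whose features were higher together. Moving outward from cox13 while the running median of 5 features stayed at or above 0.5, a rule set after the values were seen, gave 86 tested features with a median log2 fold change of 0.97 (quartiles 0.82 and 1.10), against 0.02 (quartiles -0.10 and 0.12) for the other 973 tested features of the chromosome. Of the 82 features called higher in these libraries, 68 lay in the stretch. The median of the stretch relative to the wt mean was 0.99, 0.97 and 0.98 in the 3 libraries labelled ppn1D and -0.01, 0.02 and -0.01 in the 3 wt libraries. In the other 8 mutants it was 0.02 to 0.10.

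The stretch also holds fum1, fumarase of the TCA cycle, with 407, 465 and 479 CPM in the libraries labelled ppn1D and 200, 210 and 197 CPM in wt. It ends with sgf73 on one side, and beyond the next feature mrpl17 had a mean of 26.1 CPM in the libraries labelled ppn1D and 27.0 CPM in wt. On the other side it stops next to ssp2, which had 211, 219 and 201 CPM in the libraries labelled ppn1D and 108, 108 and 108 CPM in wt, and ppn1 itself follows immediately after ssp2 with a log2 fold change of 0.13. DNA was not measured in these samples, and the source of the pattern was not tested.

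**Figure D4:**
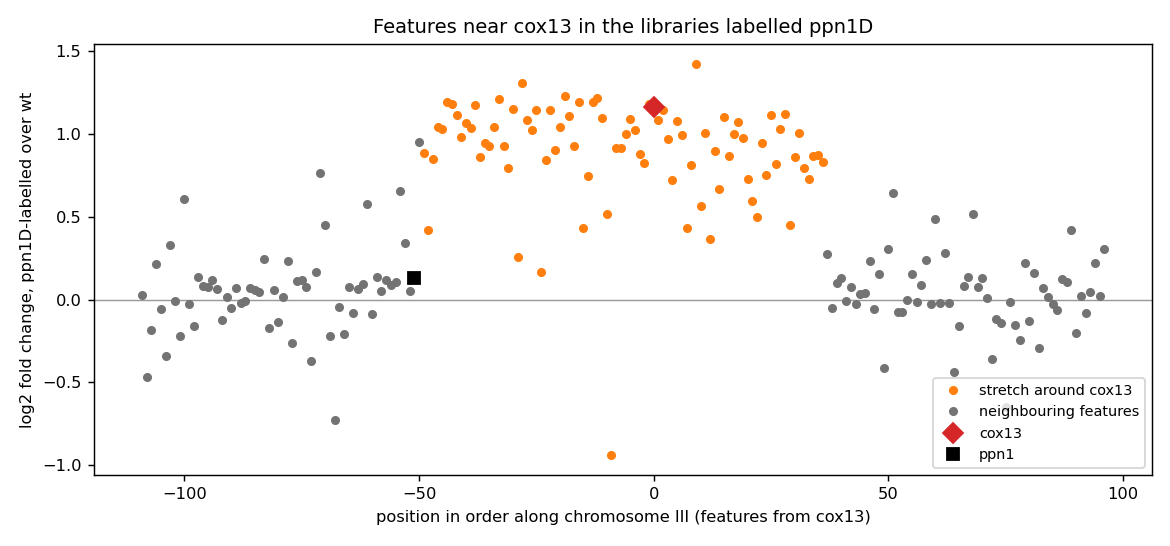
Log2 fold change of features along chromosome III in the libraries labelled ppn1D over wt, by order relative to cox13 (0 on the x axis). Features of the stretch centre on 0.97 and cox13 lies at 1.16. Most features outside it lie around 0, with ppn1 at 0.13, but ssp2 at its edge lies at 0.96.

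The sum of the mitochondrial mRNAs averaged 16185 ± 2157 CPM in ssu72D, 18502 ± 1552 CPM in dis2D and 17157 ± 788 CPM in swd22D, against 16189 ± 2391 CPM in wt (SD, n = 3 each), while the nuclear sum stood at 0.612, 0.791 and 0.871 of wt. The lowest mean was in the libraries labelled ppn1D, at 13588 ± 1831 CPM (SD, n = 3), where the nuclear structural sum was 5171 ± 85.7 CPM and that of wt 4806 ± 71.7 CPM. Counts of mitochondrial transcripts called were 0 of 38 in yth1-R59C, ssu72D, dis2D, ppn1D-labelled and PAS-T4C libraries by limma, although 0, 0, 7, 10 and 9 had an unadjusted p below 0.05, edgeR called 0, 0, 1, 1 and 4, and DESeq2 called 0, 0, 0, 2 and 1.

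The mRNAs among the mitochondrial calls were atp6 and atp9. atp6, a membrane subunit of ATP synthase, was higher in swd22D (mean 1357 CPM against 715 CPM in wt, log2 fold change 1.08 ± 0.38, SE, adjusted p = 0.039, limma), but its wt libraries spread over 1047, 322 and 775 CPM, and edgeR and DESeq2 called no mitochondrial transcript in swd22D. atp9, the ring subunit, was lower in PAS-T4G (1121 CPM against 1821 CPM in wt, log2 fold change -0.73, adjusted p = 0.011, limma). The other 5 calls were tRNA genes, all lower. The total of 7 calls over the 9 mutants dropped to 1 without wt replicate 2 and to 4 without wt replicate 3 or PAS-T4G replicate 2, and was 11 without wt replicate 1, pfs2-F115H replicate 3 or ppn1D replicate 1. The mitochondrial rRNAs rnl and rns took at least 6.15% of all counted reads. Their sum was 105182, 111820 and 118247 CPM in dis2D and 118411, 120165 and 93050 CPM in pfs2-F115H, against 89523, 86152 and 83262 CPM in wt, ratios of 1.29 and 1.28, and neither strain overlapped wt. However, neither rRNA was called by limma in these strains. On its own, rns overlapped wt in pfs2-F115H, with 36208 CPM in replicate 3 against 37562, 38541 and 35624 CPM in wt. All 39 mitochondrial features together averaged 140935 ± 7818 CPM in dis2D and 140702 ± 14582 CPM in pfs2-F115H, against 112147 ± 6238 CPM in wt (SD, n = 3 each). The rRNAs made up most of this total, with mean sums of 111750 CPM in dis2D, 110542 CPM in pfs2-F115H and 86313 CPM in wt. The 7 mitochondrial mRNAs stood at 1.14 of wt in dis2D and 1.17 in pfs2-F115H. Their sums overlapped wt in both strains, and none of the 7 was called by limma. The nuclear structural sum stood at 0.791 of wt in dis2D and 1.01 in pfs2-F115H. The rRNA spread among the libraries labelled ppn1D was widest (115378, 62086 and 81124 CPM).

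**Figure D5:**
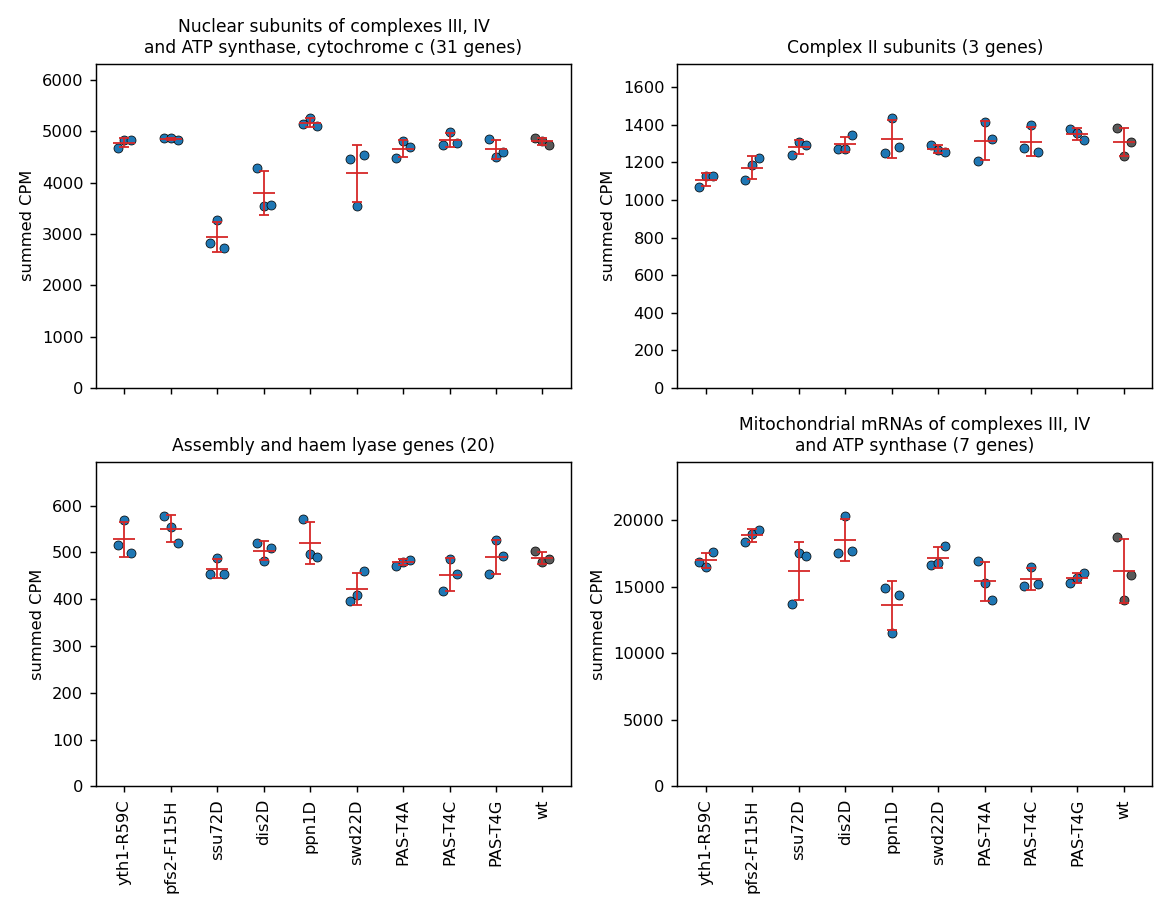
Summed CPM per library (points; mean and SD of 3 in red) for the sets named above each panel, 9 mutants left of wt. The nuclear structural genes stand at 2941 CPM in ssu72D and 4806 CPM in wt, whereas complex II, the assembly genes and the mitochondrial mRNAs overlap wt in ssu72D.

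Of the 54 members, 37 (68.5%) differed among the 10 strains in the F test over all 9 contrasts, where 60.1% of all features did. By role these were 1 of 3 complex II, 9 of 9 complex III, 7 of 8 complex IV and 11 of 13 ATP synthase subunits, 3 of 4 cytochrome c and haem lyase genes, and 1 of 2, 2 of 10 and 3 of 5 assembly genes of complex II, complex IV and ATP synthase.

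Lists of genes from neighbouring pathways held calls in ssu72D too, where 8.49% of all features tested were called lower and 8.27% higher. nde1, an external NADH dehydrogenase that feeds electrons to coenzyme Q, had 214, 256 and 182 CPM in ssu72D, against 417, 479 and 495 CPM in wt (log2 fold change -1.10 ± 0.11, SE, adjusted p = 2.3e-09, limma); it was the only call among 3 tested genes of that list, and was lower in dis2D (-0.50) and swd22D (-0.38) as well. Of 6 genes of pyruvate dehydrogenase and pyruvate import 2 were lower. Of 11 genes of coenzyme Q synthesis 1 was higher, and of 21 further assembly genes 2 were lower, coa2 and inh1, the inhibitor of the ATP synthase head (log2 fold change -0.82). Both counts lie near the shares of all features and are not read as a result about these lists. Among 22 factors of mitochondrial gene expression 2 were higher and 4 lower, including tuf1, the mitochondrial elongation factor (-0.60), and rpo41, the mitochondrial RNA polymerase (-0.38).

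In dis2D the pyruvate list had 3 calls higher and 0 lower, where 7.24% of all features were called higher and 4.80% lower. In swd22D the lists had at most 4 calls in one direction, where 12.9% of all features were called lower and 7.17% higher. Among them cmc4, a twin-cysteine assembly protein, was called lower (log2 fold change -1.26) from 1.27, 0 and 1.16 CPM, against 3.26, 2.52 and 3.50 CPM in wt, levels of a few reads.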

How the data were processed

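Total RNA of 30 libraries (10 strains, 3 each) was sequenced as stranded 50-base single-end reads; 7 small RNA samples were not analysed here. Per the study's methods, the authors aligned reads with STAR 2.7.3a to ASM294 version 2.24, counted uniquely mapping reads per gene and deposited CPM, counts per 1000000 counted reads, without scaling between libraries. Of all values, 100% were whole multiples of 1 read within 0.05, so whole reads were recovered for the count models. Features with a mean of at least 1 CPM (5911 of 6996) were fitted as log2(CPM + 1) with limma 3.58.1 (trend, 1 model over 10 strains, 20 residual degrees of freedom), and p-values were Benjamini-Hochberg adjusted over all features; fold changes on this scale understate changes of low genes. edgeR 4.0.16 and DESeq2 1.42.0 on recovered reads, other pseudocounts, filters, scalings, a replicate block and omission of single libraries were alternatives; in ssu72D edgeR called 28 and DESeq2 27 members. The limma fit was tested on simulated counts for wt and ssu72D only, and the other steps were not. Annotation came from RefSeq ASM294v3 (6850 of 6996 IDs matched, all 54 members); its gene coordinates were not mixed with the files' build. Members and lists were chosen with earlier results of these data known. Members were named by role; library values are given for members past 2-fold, for the 3 smallest adjusted p of a comparison and for the extremes of each role, and further genes were added after their values were seen. Replicate numbers are not stated to mark a shared batch, so no pairing was used. No per-sample column was left out (0).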

Additional observations from a re-analysis of the deposited data

How the results depend on the processing

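No called value of a single gene changed sign in any of its alternatives, and 51 of 98 calls, the 2 direct comparisons included, were kept under all of them. Requiring at least 2-fold left 0 members in yth1-R59C, pfs2-F115H, ssu72D, dis2D, PAS-T4A, PAS-T4C, PAS-T4G and ssu72D against dis2D, 2 in swd22D and 1 in ssu72D against swd22D. edgeR gave 3 members in yth1-R59C, 8 in pfs2-F115H, 3 in PAS-T4C and 10 in ssu72D against dis2D. DESeq2 gave 2 in yth1-R59C, 5 in pfs2-F115H, 8 in swd22D, 2 in PAS-T4C and 8 in ssu72D against dis2D. Median-of-ratios scaling gave 10 in ssu72D against dis2D. Removing the coding length trend gave 6 in swd22D, 0 in PAS-T4C and 11 in ssu72D against dis2D; this alternative was chosen after seeing the data.

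Leaving out 1 library gave counts of 0 to 1 in yth1-R59C, 0 to 3 in pfs2-F115H, 21 to 24 in ssu72D, 6 to 14 in dis2D, 5 to 16 in swd22D, 1 to 3 in PAS-T4A, 0 to 0 in PAS-T4C, 1 to 3 in PAS-T4G, 1 to 1 in the libraries labelled ppn1D, 9 to 16 in ssu72D against dis2D and 15 to 22 in ssu72D against swd22D, and 1 to 11 for mitochondrial transcripts. The F test over the 10 strains called 34 to 39 members.

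Mitochondrial transcripts called over the 9 mutants numbered 4 with no filter, 4 with a mean of at least 10 CPM, 11 with nuclear genes only in the library totals, 27 in the fit over the 2 strains compared and 13 in edgeR. The cause of these differences was not tested, except that pairwise fits use fewer samples.

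With the replicate number as a block the counts were 1 in yth1-R59C, 3 in pfs2-F115H, 22 in ssu72D, 12 in dis2D, 1 in the libraries labelled ppn1D, 11 in swd22D, 2 in PAS-T4A, 1 in PAS-T4C and 2 in PAS-T4G. Deviations of same-numbered libraries correlated at -0.17 to 0.20, over 0.1 in 1 of 27 pairs, and 8 of 27 mutant libraries were most like the wt library of their own number. Depth limits the members under 10 CPM.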
